A study of Mus musculus with 48 samples.

Results

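The mitochondrial genome transcripts are the RNAs of all genes whose symbol starts with mt-, found by joining the Ensembl identifiers of the count table to a reference annotation. The rule found 37 genes of 37620 in the table: 13 protein-coding genes, 2 ribosomal RNA genes and 22 transfer RNA genes. All of them lie on the mitochondrial chromosome and the rule itself uses no measured value. They were followed over 48 RNA sequencing libraries of mouse hippocampal neurons, 3 from each of 16 populations, in which fluorescent cells had been picked by hand from microdissected slices and their total RNA amplified before sequencing. Of the 16 populations, 7 are CA1 pyramidal cells taken by position: dorsal, intermediate and ventral cells on the long axis, proximal and distal cells on the transverse axis, and superficial and deep cells of the cell layer. Another 3 are CA1 pyramidal cells chosen by their target, with dorsal cells that project to the postsubiculum and ventral cells that project to the amygdala or to the nucleus accumbens. The remaining 6 are pyramidal cells of CA3 and granule cells of the dentate gyrus (DG), each from the dorsal and from the ventral pole, and parvalbumin (PV) and somatostatin (SST) interneurons of CA1. The sample labels name no treatment, and the mouse lines, cell labels, ages and sexes behind each population are not given in the sources used here. Where these differ between populations, they cannot be told apart from differences between the cells. The series calls the 3 libraries of a population biological replicates, but no label ties them to different animals, and the p-values below reflect only how far these libraries spread.

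Mitochondria carry a small circular genome of their own in many copies per cell. Both of its strands are copied into long RNAs, and the transfer RNAs that lie between the other genes are cut out, which frees the ribosomal RNAs and the mRNAs. The mRNAs encode core subunits of the respiratory chain and of ATP synthase, whose other subunits come from the nucleus, and hippocampal neurons rely on this chain for most of the ATP that ion pumping and synaptic transmission use. All of the mRNAs except mt-Nd6 lie on one strand.

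The length and the surroundings of a member bear on how many reads it could collect, so a few sequences are shown first, from the GENCODE transcripts of the GRCm38 build. The first pair holds the opening bases of mt-Nd3, the member that differed most among the populations, and of Gm28438. The latter is its nearest copy among the annotated nuclear transcripts, and nuclear sequence outside these was not searched. The one difference over the 345 bases compared is T3C, with positions counted from 1 at the 5′ end of the gene, and it is the base in capitals.
mt-Nd3, first 120 bases, GRCm38 chrM:9459-9578, plus strand: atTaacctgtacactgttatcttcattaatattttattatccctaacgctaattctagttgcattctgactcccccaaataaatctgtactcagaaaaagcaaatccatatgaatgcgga
Gm28438, first 120 bases, GRCm38 chr1:24613000-24613119, minus strand: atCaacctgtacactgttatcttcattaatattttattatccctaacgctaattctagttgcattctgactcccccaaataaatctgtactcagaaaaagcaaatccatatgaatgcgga
Below are both short reading frames that run into the next gene, with the shared bases in capitals. The last 43 bases of mt-Atp8 are also the first of mt-Atp6, and the last 7 bases of mt-Nd4l are the first of mt-Nd4.
mt-Atp8, GRCm38 chrM:7766-7969, plus strand: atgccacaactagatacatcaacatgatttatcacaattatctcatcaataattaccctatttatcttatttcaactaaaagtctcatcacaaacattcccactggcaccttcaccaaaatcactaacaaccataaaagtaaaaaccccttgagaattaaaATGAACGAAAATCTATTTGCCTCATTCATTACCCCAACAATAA
mt-Nd4l, GRCm38 chrM:9877-10173, plus strand: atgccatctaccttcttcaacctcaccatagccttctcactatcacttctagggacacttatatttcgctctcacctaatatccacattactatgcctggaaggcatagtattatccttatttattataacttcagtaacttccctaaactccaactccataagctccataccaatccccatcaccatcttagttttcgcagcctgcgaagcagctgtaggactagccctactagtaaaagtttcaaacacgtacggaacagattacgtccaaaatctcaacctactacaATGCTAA
The other 3 are the transfer RNAs that had any read, all on the minus strand, with no base in capitals.
mt-Tp, transfer RNA for proline, GRCm38 chrM:15356-15422: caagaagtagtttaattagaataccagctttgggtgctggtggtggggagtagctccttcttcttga
mt-Tn, transfer RNA for asparagine, GRCm38 chrM:5089-5159: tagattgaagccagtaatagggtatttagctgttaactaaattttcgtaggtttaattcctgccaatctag
mt-Tc, transfer RNA for cysteine, GRCm38 chrM:5192-5257: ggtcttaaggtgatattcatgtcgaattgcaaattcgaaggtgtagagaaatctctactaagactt

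Of the 37 members, 18 had a read in at least 1 library. The 22 transfer RNAs, of 59 to 75 bases, were nearly unread: 19 had no read in any library, mt-Tp had 1599 reads in all, mt-Tn 94 and mt-Tc 74. Among the mRNAs, mt-Nd4l, which encodes a small subunit of complex I, had only 32 reads over the 48 libraries and none in 29 of them, while mt-Nd4 beside it had 1909268. Among the annotated nuclear transcripts of GRCm38, identical copies without 1 differing base were found over 98.99% of mt-Nd4l (Gm10222), 99.6% of mt-Co2 (Gm28661), 99.6% of mt-Atp6 (Gm10925), 99.9% of mt-Co3 (Gm28437) and 63.6% of mt-Nd4 (Gm28439). Copies outside annotated transcripts were not searched for. The copy of mt-Nd4l is a row of the count table with 306 reads, and Gm13340, 97.6% identical to mt-Co1, is another with 2412. How the counting shared reads between members and copies was not tested, so the levels of these genes and of mt-Nd3 are uncertain. The table of FPKM values lists all 37 members at 0 in every library, although 13 of them are among the 3357 genes with a mean of at least 1000 counted reads. Only 16 of those 3357 genes are at 0 throughout that table, so the values below rest on the counts.

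Reads in genes ran from 5116568 (ventral CA1 replicate 2) to 31984948 (proximal CA1 replicate 3) per library, with a median of 19339100.0 reads. Marker genes were set against the labels as summed CPM (reads per 1000000 reads in genes). Those of GABAergic cells (Gad1, Gad2 and Slc32a1) ran from 4051 to 6985 CPM in both interneuron groups and stayed at 686 or below elsewhere. Those of granule cells (Prox1, Dsp, Glis3 and C1ql2) ran from 1538 to 2223 CPM in DG and stayed at 25.9 or below elsewhere, and those of CA1 (Fibcd1, Mpped1 and Wfs1) ran from 425 to 2299.9 CPM in the 10 CA1 pyramidal groups and stayed at 166 or below elsewhere. The CA3 markers (Iyd, Grik4 and Elavl2) did not single out CA3: they summed to 263 to 378 CPM there, to 302 to 509 CPM in the interneurons and to 197 CPM or less elsewhere. Signs of other cells (summed GABAergic, astrocyte, oligodendrocyte, microglia or endothelial markers) or of RNA quality (nuclear-retained RNAs, reads outside genes) differed between groups. They are given beside each comparison with called members where the ranges did not overlap, leaving out markers that stayed under 10 CPM in both groups. In bulk samples, fewer cells of a type and less RNA per cell cannot be told apart.

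Mitochondrial reads took between 8.27% (proximal CA1 replicate 3) and 24.5% (PV replicate 1) of the reads in genes, with a median of 13.9%. The 7 CA1 populations taken by position held the 7 lowest means. They ran from 8.41% ± 0.199 (SD, n = 3 here and below) in distal, 8.62% ± 0.305 in proximal, 8.98% ± 0.351 in superficial, 9.57% ± 0.161 in dorsal, 9.63% ± 0.668 in deep and 9.69% ± 0.689 in intermediate cells to 11.9% ± 0.854 in ventral cells. Above them came the postsubiculum-projecting cells with 12.7% ± 1.17, followed by dorsal DG with 15.7% ± 1.12, ventral CA3 with 15.8% ± 1.48 and accumbens-projecting CA1 with 15.96% ± 0.763. The 5 highest means were 16.7% ± 0.742 in dorsal CA3, 17.2% ± 2.65 in SST cells, 18.3% ± 1.85 in amygdala-projecting CA1, 18.7% ± 2.53 in ventral DG and 21.6% ± 2.74 in PV cells. Of the 15 steps between neighbours in this order, 12 had overlapping ranges. The 3 that did not were the steps from superficial to dorsal CA1, from intermediate to ventral CA1 and from postsubiculum-projecting CA1 to dorsal DG. The order depends on the denominator. With reads outside genes and spike-ins counted in it, postsubiculum-projecting cells, at 7.10%, lay below intermediate (7.38%) and ventral CA1 (8.40%), dorsal DG came to 8.85% and ventral DG to 10.1%. Without SST replicate 3, a library that stands apart, the SST mean was 15.8% of reads in genes and 11.8% with the wider denominator, against 12.8% with it.

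**Figure D1:**
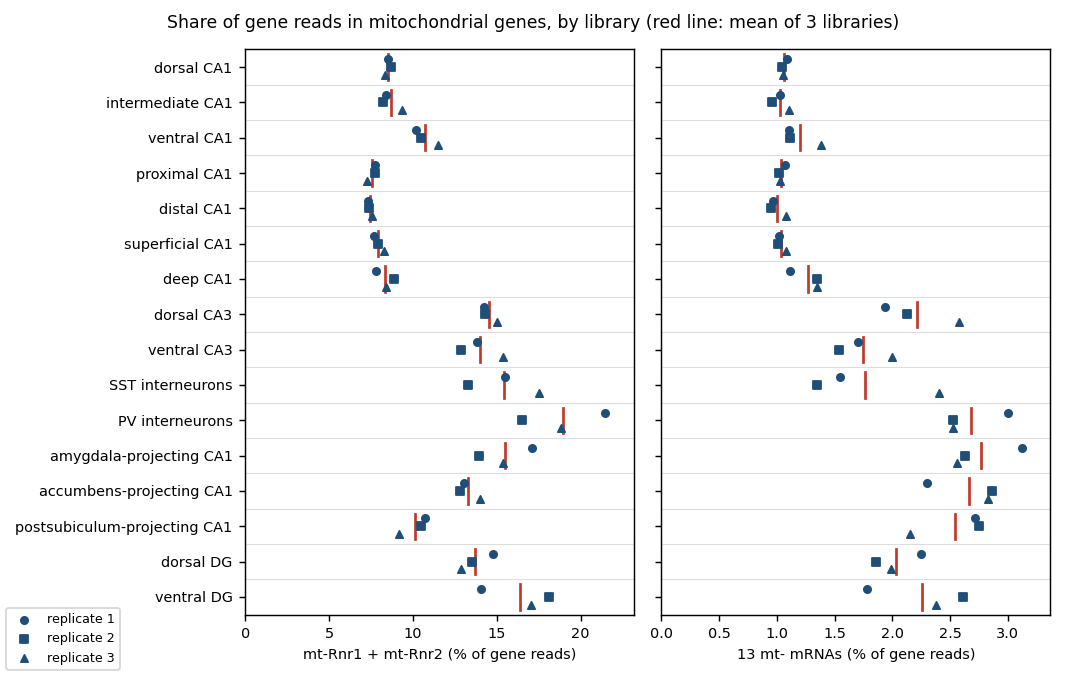
Share of reads in genes (percent) taken by mt-Rnr1 and mt-Rnr2 together (left) and by the 13 mitochondrial mRNAs (right), in each of 48 libraries by population. Symbols mark the replicate number and red lines the mean of 3 libraries. In the right panel, the 7 CA1 populations taken by position have means of 1.00% to 1.27%, below all others, and amygdala-projecting cells have the highest, 2.77%.

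The 2 ribosomal RNAs supplied most of these reads. Their share of mitochondrial reads ran from 79.2% (postsubiculum-projecting replicate 2) to 90.9% (SST replicate 1), and the mRNAs took nearly all of the rest. The 3 postsubiculum-projecting libraries, at 79.7%, 79.2% and 81.0%, were all below the other 45 libraries, of which the lowest stood at 81.8%. Both ventral projection groups followed, with 83.3% ± 1.63 in accumbens-projecting and 84.8% ± 0.823 in amygdala-projecting cells, while the other 13 populations had means of 86.8% to 90.0%. Measured against all reads in genes, the 13 mRNAs together took from 0.950% (distal replicate 2) to 3.12% (amygdala-projecting replicate 1). The order of populations for mRNA alone put amygdala-projecting cells first with 2.77% ± 0.306, then PV cells with 2.68% ± 0.273, accumbens-projecting cells with 2.66% ± 0.312 and postsubiculum-projecting cells with 2.54% ± 0.339. The 7 CA1 populations taken by position ranged from 1.00% ± 0.0698 in distal to 1.27% ± 0.134 in deep cells, again below all others. In the postsubiculum-projecting libraries, 43.0% ± 0.465 of uniquely mapped reads lay outside genes, against 29.4% ± 2.99 in dorsal CA1. The DG libraries had 38.2% to 46.7% of these reads outside genes and a ribosomal share of 86.7% to 88.8%. The part that reads outside genes play in the ribosomal share was not tested in any group.

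Per kilobase of gene, the levels of the members spanned orders of magnitude although one strand supplies all but 1 of the mRNAs. Over the 48 libraries the mean level was 51266 CPM per kb for mt-Rnr2, the large subunit RNA, and 40158 for mt-Rnr1, the small subunit RNA. The highest mRNA was mt-Co1, which encodes the catalytic subunit of cytochrome c oxidase (complex IV), at 4570 ± 1786 CPM per kb (SD, n = 48). Close to each other came mt-Nd1 at 1897 ± 692, mt-Cytb at 1866 ± 758 and mt-Nd4 at 1576 ± 737 CPM per kb. The complex IV subunits mt-Co2 and mt-Co3 and the complex I subunit mt-Nd5 stood at 1150 ± 586, 1103 ± 521 and 1035 ± 539 CPM per kb. Lower levels were found for mt-Nd2 (574 ± 345 CPM per kb), mt-Nd6 (289.7 ± 162), mt-Atp6 (213 ± 94.1) and mt-Nd3 (206 ± 146). The overlapping frames were the lowest, with 32.5 ± 21.6 CPM per kb for mt-Atp8 and 0.123 ± 0.168 for mt-Nd4l. Within each SD the populations differ, as the next paragraphs describe. Which population was highest depended on the gene. Amygdala- and accumbens-projecting cells held the top population means of mt-Nd5 (2024 ± 350.3 and 1876 CPM per kb), mt-Nd2 (1136 ± 142.5 and 1079), mt-Co3 (2182 ± 234 and 2069) and, in the reverse order, mt-Nd1 (3023 ± 486 and 2924) and mt-Atp8 (75.9 ± 13.8 and 71.1). PV cells were highest for mt-Co2 (2471 ± 400.4 CPM per kb) and mt-Atp6 (392.4 ± 29.5), and ventral DG for mt-Nd4 (2530.3 ± 691) and mt-Cytb (3042 ± 594). The lowest mean of each of these 9 genes fell in a CA1 population taken by position, from 13.3 ± 2.66 CPM per kb for mt-Atp8 in ventral to 1050.1 ± 151 for mt-Nd1 in intermediate cells.

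**Figure D2:**
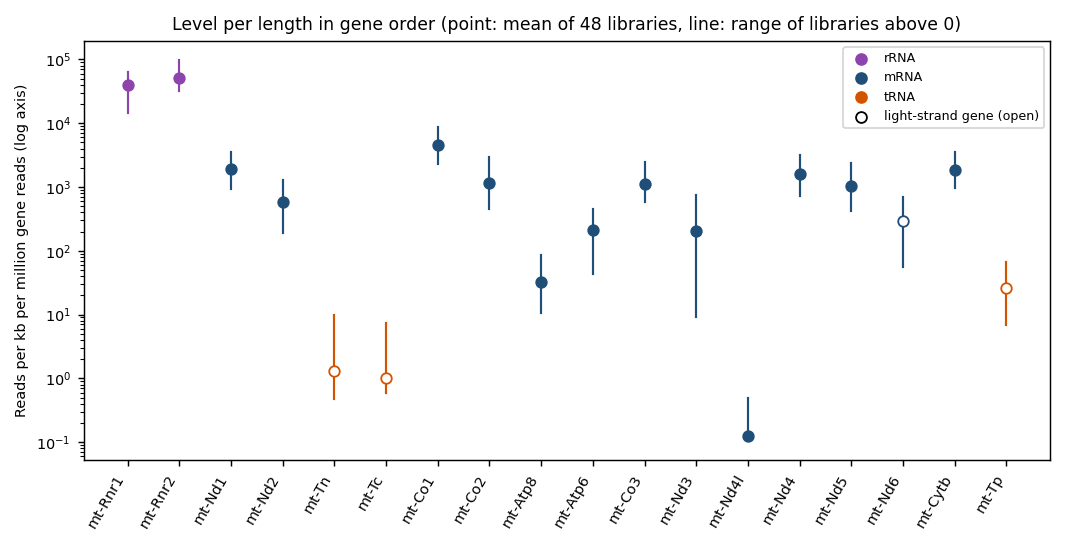
Level in CPM per kilobase of gene (log axis) for the 18 members with a read, in gene order. Points are means over 48 libraries, lines the range of the libraries above 0, colours the class of RNA and open points genes of the light strand. The rRNAs lie above all others, mt-Co1 is the highest mRNA at 4570 and mt-Nd4l the lowest at 0.123.

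Across the 16 populations, 15 members had enough reads to be tested and 14 of them differed (edgeR quasi-likelihood test, Benjamini-Hochberg adjusted p under 0.05), against 65.3% of all 17918 genes tested. F was largest for mt-Nd3 (55.6, adjusted p = 1.01e-22), followed by mt-Co2 (51.2, adjusted p = 5.16e-22). The transfer RNA mt-Tp had the smallest F (1.05) and was not called (adjusted p = 0.470). Because all members can move together, the test was repeated with library sizes set to the mitochondrial reads alone. On that scale 14 of 15 members again differed, against 76.3% of all genes tested, with the largest F once more for mt-Nd3 (35.9) and an adjusted p of 0.889 for mt-Tp. This second scale shifts nuclear genes as a body, for example by a median log2 of 0.78 between CA1 and CA3, so it is used only for the members relative to each other.

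mt-Rnr2, the RNA of the large mitochondrial ribosomal subunit, had 53613, 51939 and 51041 CPM in dorsal CA1, 55153, 53674 and 59119 in intermediate CA1 and 65838, 69241 and 77712 in ventral CA1. It had 61653, 60415 and 58788 CPM in proximal, 56778, 57708 and 55457 in distal, 52183, 53112 and 57424 in superficial and 50800.3, 55439 and 53708 in deep CA1. Thus no library of the 7 CA1 groups taken by position exceeded 77712 CPM. In CA3 the values were 102440.0, 98804 and 103015 CPM in dorsal and 90482, 84416 and 102796 in ventral cells, and in DG they were 94819.7, 87580.0 and 84405 in dorsal and 92261, 119733 and 117083 in ventral cells. PV cells were highest, with 156418, 124600.0 and 138861 CPM. SST cells, with 121738, 104644 and 120652, overlapped ventral DG and amygdala-projecting CA1. Projection-defined cells spread widely: 115345, 89946 and 100813 CPM in amygdala-projecting, 84414, 81277 and 90931 in accumbens-projecting and 62361, 59023 and 53249 in postsubiculum-projecting CA1. The last of these lay inside the range of the CA1 groups taken by position, and the other 2 lay wholly above it.

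mt-Rnr1, the RNA of the small subunit, did not follow mt-Rnr2 in all groups. It had 15947, 16986 and 13667 CPM in proximal and 16369, 15879.9 and 20159 in distal CA1, the 6 lowest values of all libraries. Dorsal CA1 had 31330.4, 34889.7 and 32511 CPM, intermediate CA1 28775, 28572 and 34576, ventral CA1 36097, 35451 and 37448, superficial CA1 24295, 25890.4 and 25365, and deep CA1 27126, 33301 and 30442. Dorsal CA3 had 40152, 44218 and 47025 CPM and ventral CA3 47796, 44372 and 50844, ranges that overlapped dorsal DG, with 52790.0, 47390.2 and 44553. Ventral DG had 48292, 61180.1 and 53369 CPM, amygdala-projecting cells 55828, 49642 and 52869, accumbens-projecting cells 46315, 46942 and 49028, and postsubiculum-projecting cells 44576, 45823 and 38288. PV cells had 58478, 40462 and 49664 CPM and SST cells 33154, 28196 and 54509.5, where replicate 3 stood apart from the other 2.

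The ratio of mt-Rnr2 to mt-Rnr1 reads therefore differed among populations. It was 3.87, 3.56 and 4.30 in proximal CA1 and 3.47, 3.63 and 2.75 in distal CA1, the groups with the highest means. SST cells had 3.67, 3.71 and 2.21, again with replicate 3 apart, and PV cells 2.67, 3.08 and 2.80. At the other end, postsubiculum-projecting cells had 1.40, 1.29 and 1.39, all below the remaining 45 libraries, of which the lowest was 1.49 in dorsal CA1. The other 11 populations had means of 1.59 (dorsal CA1) to 2.33 (dorsal CA3). In the order of the 16 means, 13 of 15 neighbouring ranges overlapped, and the steps on either side of the range from dorsal CA1 to dorsal CA3 did not.

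mt-Nd3 encodes a small subunit of complex I, the first enzyme of the respiratory chain, and had the most uneven pattern of all members. Superficial CA1 had 4.28, 5.46 and 5.27 CPM (105, 131 and 107 reads) and deep CA1 3.44, 4.09 and 3.21 CPM (53, 50 and 40 reads). The other 42 libraries had at least 28.6 CPM, the lowest being intermediate CA1 replicate 2. Dorsal CA1, at 38.0, 30.1 and 38.8 CPM, intermediate CA1, at 29.3, 28.6 and 30.8, and ventral CA1, at 31.01, 35.4 and 45.0, came next. Ventral DG replicate 1, at 46.9 CPM, followed closely. Proximal CA1 had 78.8, 62.8 and 88.8 CPM, distal CA1 65.7, 70.8 and 68.9, dorsal CA3 66.9, 59.5 and 62.0, ventral CA3 61.5, 55.3 and 70.7, and postsubiculum-projecting cells 54.4, 73.5 and 47.9. Levels were higher in amygdala-projecting cells, with 125, 116 and 117 CPM, in accumbens-projecting cells, with 102, 87.7 and 111, and in dorsal DG, with 114, 137 and 148, than in ventral DG, with 46.9, 78.9 and 59.3. PV cells reached the top of the range, with 263, 186 and 127 CPM, and SST cells had 128, 98.4 and 77.5.

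As a share of the 13 mRNAs, mt-Nd3 took 0.0421%, 0.0539% and 0.0489% in superficial and 0.0308%, 0.0303% and 0.0239% in deep CA1. The lowest of the other 42 libraries stood at 0.200%, their median at 0.360% and the highest, PV replicate 1, at 0.877%. No other mRNA was set apart in superficial and deep CA1 in this way: for each of the other 12 the share in these 6 libraries overlapped that in the other 42. Both groups held 12222095 to 24546662 reads in genes. In them mt-Nd4, which lies downstream on the same strand, had 10.9% to 11.5% of the mRNA reads, against 7.58% to 16.9% elsewhere. Why mt-Nd3 was low in both groups was not tested. The first 120 bases of mt-Nd3, printed above, differ from the nuclear copy at 1 base, and whether reads were placed differently in these 6 libraries was not tested. Mitochondrial reads per ERCC spike-in read were 418.6 to 608 in superficial and 11.5 to 14.6 in deep CA1, and 1.25 to 608 over all libraries. Spike-ins took 0.0154% to 0.0208% of reads in genes and spike-ins in superficial and 0.662% to 0.814% in deep CA1. The mitochondrial shares of reads in genes were 8.98% and 9.63%, so this ratio is not read as a difference in mitochondrial RNA.

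**Figure D3:**
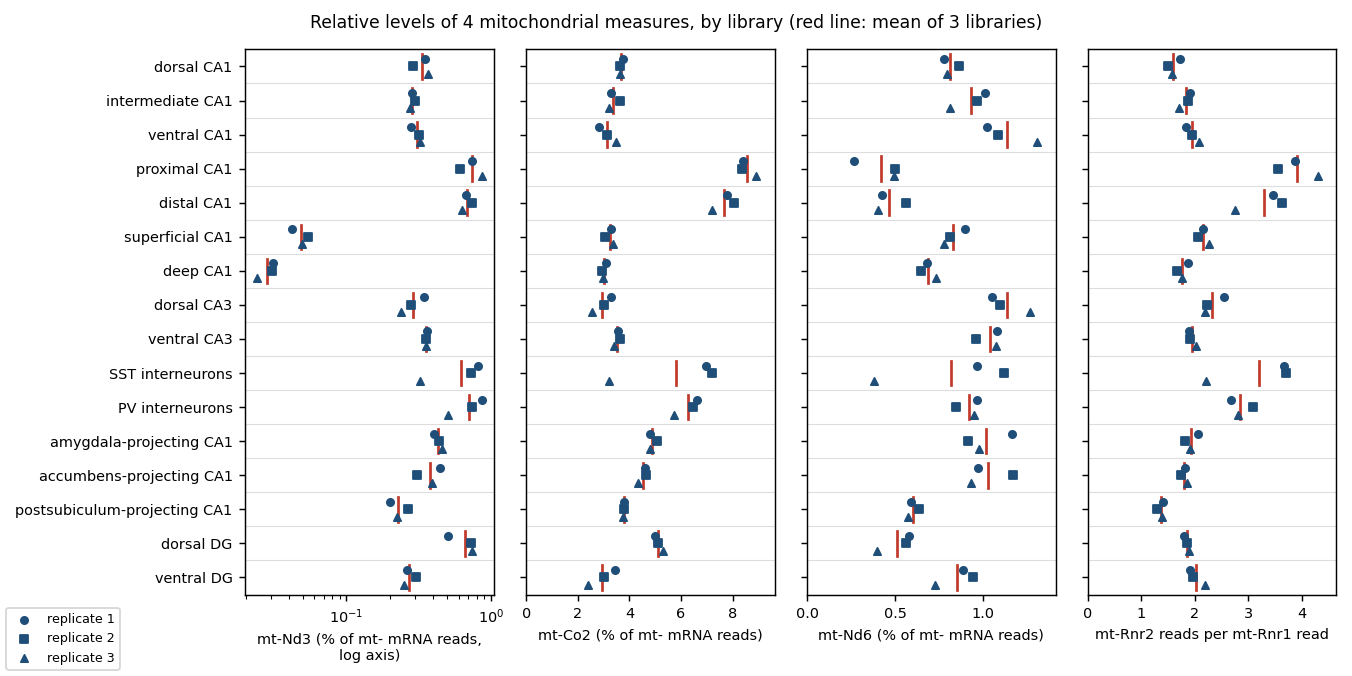
Shares of the mitochondrial mRNA reads (percent) in mt-Nd3 (log axis), mt-Co2 and mt-Nd6, and reads of mt-Rnr2 per read of mt-Rnr1, in each of 48 libraries by population. Symbols mark the replicate number and red lines the mean of 3 libraries. Superficial and deep CA1 lie at 0.0239% to 0.0539% for mt-Nd3, below all other libraries, and SST replicate 3 lies apart from the other SST libraries in all 4 panels.

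mt-Co2, a copper-binding subunit of complex IV, had its highest shares in both proximal and distal CA1, between which no member was called. It took 8.41%, 8.38% and 8.91% of the mRNA reads in proximal and 7.77%, 8.07% and 7.21% in distal CA1, and no other library exceeded 7.19% (SST replicate 2). SST cells had 6.98%, 7.19% and 3.20%, PV cells 6.63%, 6.45% and 5.74%, and the remaining 12 populations stayed between 2.40% and 5.28%. The same 6 proximal and distal libraries had the highest shares of mt-Nd1, a complex I subunit, at 12.2% to 14.97%, above the 7.42% to 11.98% of the other 42. They also had low shares of mt-Nd6, with 0.268%, 0.500% and 0.492% in proximal and 0.427%, 0.561% and 0.406% in distal CA1, but here dorsal DG (0.581%, 0.562% and 0.395%) and SST replicate 3 (0.378%) overlapped them. Ventral DG stood apart by mt-Cytb, the core of complex III, at 15.4%, 15.6% and 15.3% of mRNA reads, above all other libraries, of which the highest was 14.4% in dorsal CA3.

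mt-Nd6, another complex I subunit, is the only mRNA of the opposite strand and shares 14 bases with the end of mt-Nd5. The strand used in counting is not given in the sources used here, so its reads cannot be told apart from RNA running antisense through the same place. Its lowest levels were 28.6, 51.1 and 50.3 CPM in proximal and 41.4, 53.4 and 43.8 in distal CA1. Other CA1 groups had 84.7, 90.5 and 83.7 CPM (dorsal), 104, 92.8 and 89.9 (intermediate), 113, 121 and 181 (ventral), 90.9, 82.4 and 83.8 (superficial) and 76.1, 87.8 and 98.8 (deep). Dorsal CA3, with 203, 233 and 327 CPM, lay near ventral CA3, with 183, 148 and 214. The DG groups had 131, 105 and 78.4 CPM (dorsal) and 157, 246 and 172 (ventral). PV cells had 289.6, 214 and 240.1 CPM and SST cells 149.9, 151 and 90.7. The projection groups had 363, 241 and 249.8 CPM (amygdala), 224, 335 and 264 (accumbens) and 161, 176 and 123 (postsubiculum). Per read of mt-Nd5, it ran from 0.0488 ± 0.0127 in proximal CA1, 0.0503 ± 0.0103 in dorsal DG and 0.0537 ± 0.00697 in distal CA1 to 0.117 ± 0.0142 in ventral CA1.

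mt-Co1 was the most abundant mRNA in every population. In the CA1 groups taken by position, the lowest, median and highest values were 3495, 4638 and 6121 CPM. Dorsal CA1 had 4642, 4638 and 4464 CPM, intermediate 4814, 4485 and 5082, ventral 5006, 5125 and 6121, proximal 3945, 3560.3 and 3495, distal 3744, 3507 and 4253, superficial 4456, 4410.5 and 4802, and deep 5086, 5884 and 5832. The other 27 libraries started at 5082 CPM (SST replicate 2). Postsubiculum-projecting cells had 10906, 12045 and 9773 CPM, accumbens-projecting cells 8156, 9956 and 10767, amygdala-projecting cells 11549.5, 8887 and 9843, and PV cells 12886, 9926 and 10622. Intermediate levels came from dorsal CA3, with 6720.0, 7952 and 9479.8, ventral CA3, with 6635, 5965 and 7909, dorsal DG, with 7906, 7387 and 7229, and ventral DG, with 6446, 8685 and 9135. SST cells split, with 5999.9, 5082 and 13726 CPM. In SST replicate 3, mt-Co1 made up 57.1% of the mRNA reads against 38.7% and 37.7% in the other 2, while mt-Nd2 (1.38%), mt-Nd4 (7.58%), mt-Cytb (9.57%) and mt-Atp6 (0.122%) had their lowest shares of all 48 libraries there. Counts of called genes for SST cells below are given with and without that library.

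**Figure D4:**
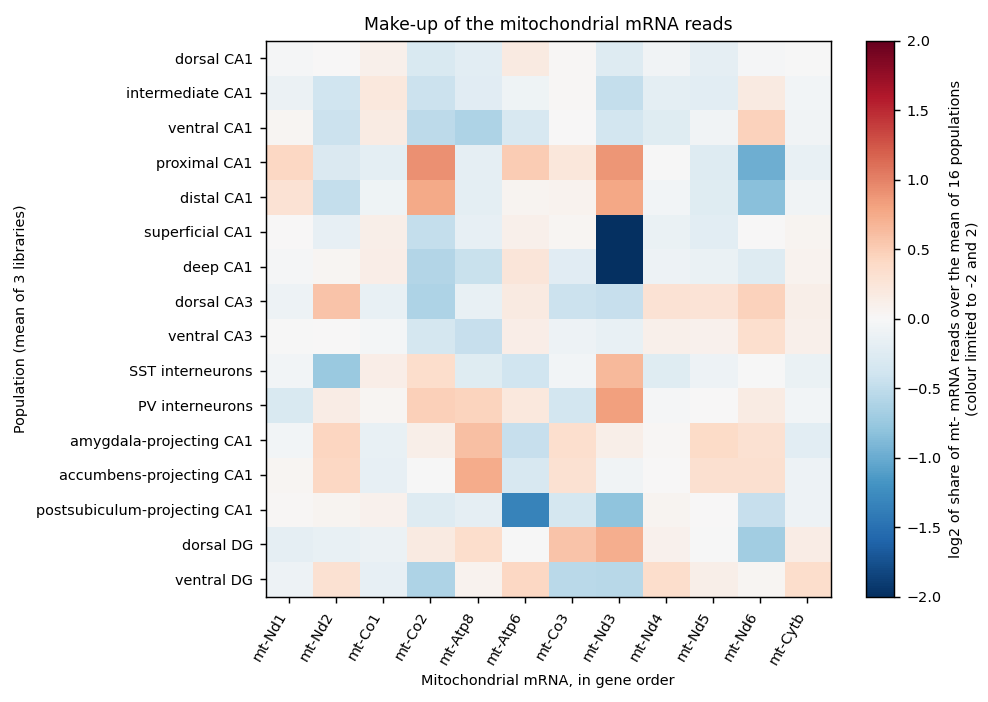
Share of 12 mRNAs (all but mt-Nd4l) in the mitochondrial mRNA reads of each population, as the log2 ratio of its mean over 3 libraries to the mean of the 16 populations (red higher, blue lower, colour limited to 2 in either direction). The darkest blue cells are mt-Nd3 in superficial and deep CA1, with shares of 0.0483% and 0.0283%, followed by mt-Atp6 in postsubiculum-projecting cells, with 0.340%.

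mt-Tp, the transfer RNA for proline, was the only transfer RNA with a mean of at least 10 reads per library (33.3). Reads ran from 3 (ventral CA1 replicate 2) to 99 (ventral CA3 replicate 3). In CPM, dorsal CA3 had 2.56, 2.91 and 3.16 and PV cells 2.99, 3.64 and 2.44, the tightest of the higher groups. Ventral CA3 had 1.55, 1.22 and 3.20 CPM, dorsal DG 3.06, 0.885 and 3.49, ventral DG 2.48, 2.30 and 4.43, and SST cells 2.93, 1.92 and 3.37. The CA1 groups, whether taken by position or by projection, stayed between 0.452 and 2.03 CPM. No comparison called it. Of the 74 reads of mt-Tc, 34 came from the 3 ventral CA3 libraries (9, 10 and 15 reads), and mt-Tn had at most 12 reads in a library.

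Along the long axis of CA1, the study asks how cells of one class differ from the dorsal to the ventral pole. Here 2 of 14 members tested were called between dorsal and ventral cells, where 15.1% of all genes were. mt-Rnr2 was lower in dorsal cells, with 52198 ± 1305 against 70930 ± 6115 CPM (log2 difference -0.40, SE 0.06, edgeR adjusted p = 6.53e-05). mt-Nd6 was also lower, with 86.3 ± 3.65 against 138 ± 37.2 CPM (log2 -0.64, SE 0.17, edgeR adjusted p = 0.0140). Neither gene's ranges overlapped. Between dorsal and intermediate cells 0 members were called by edgeR, where 4.93% of all genes were, with 1 at an unadjusted p under 0.05, 0 by DESeq2 and 1 without intermediate replicate 3. Between intermediate and ventral cells 1 was called, where 5.03% of all genes were: mt-Rnr2, lower in intermediate cells at 55982 ± 2816 CPM (log2 -0.32, SE 0.06, edgeR adjusted p = 0.00229). Relative to mitochondrial reads, where 19.6% of all genes were called between the poles, 3 members were higher in dorsal cells: mt-Nd2 (log2 0.58, SE 0.14), mt-Atp6 (0.63, SE 0.18) and mt-Nd4 (0.31, SE 0.10). Leaving out dorsal replicate 1 or dorsal replicate 3 left 1 call between the poles on the first scale. On the second, 1 was left without dorsal replicate 1, dorsal replicate 3, ventral replicate 1 or ventral replicate 2. The intermediate to ventral count rose to 4 without intermediate replicate 3, 3 without ventral replicate 1 and 2 without ventral replicate 2. In 1 fit of all 48 libraries, 0 members were called between the poles and 0 between intermediate and ventral cells. Ventral libraries held 5116568 to 8354457 reads in genes against 22115411 to 30077876 in dorsal cells. Their summed GABAergic markers stood at 15.05 to 19.4 CPM against 0 to 1.40 in dorsal cells, with Gad1 and Slc32a1 at 0 in the latter. Astrocyte markers summed to 398 to 513 CPM in ventral and 280 to 370 in dorsal libraries, and oligodendrocyte markers to 52.4 to 71.3 CPM in ventral, 34.1 to 40.2 in intermediate and 14.7 to 35.1 in dorsal libraries. The part of these in the calls was not tested.

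Between proximal and distal CA1, 0 of 15 members were called by edgeR, with 2 at an unadjusted p under 0.05 and 0 by DESeq2, where 1.06% of all genes were called. The largest difference among the mRNAs was that of mt-Atp6, a subunit of ATP synthase, at log2 0.50 (edgeR adjusted p = 0.267). Superficial and deep CA1 differed in 4 of 15 members, where 2.48% of all genes were called, and all 4 were lower in superficial cells. mt-Co1 had 4556 ± 214 against 5601 ± 447 CPM (log2 -0.33, SE 0.07, edgeR adjusted p = 0.0272), and mt-Rnr1 25183 ± 813 against 30289 ± 3090 (-0.30, SE 0.06, adjusted p = 0.0308). mt-Nd2, a complex I subunit, had 291 ± 4.46 against 412 ± 61.0 CPM (-0.54, SE 0.12, edgeR adjusted p = 0.0404) and mt-Nd5 916 ± 30.1 against 1187 ± 146 (-0.41, SE 0.10, adjusted p = 0.0476). Although no ranges overlapped, the count rested on single libraries. It was 0 without superficial replicate 1, 2 or 3, without deep replicate 2 or without deep replicate 3, and 7 without deep replicate 1, and 1 fit of all 48 libraries called 0. GABAergic markers summed to 153 to 686 CPM in deep and 14.8 to 140.2 CPM in superficial libraries, astrocyte markers to 325 to 536 and 223 to 287 CPM, and their part in these calls was not tested. mt-Nd3, low in both groups, was at log2 0.45 between them (edgeR adjusted p = 0.842).

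Of the 15 members tested, 13 in amygdala-projecting, 13 in accumbens-projecting and 10 in postsubiculum-projecting cells were higher than in the CA1 cells taken by position at the same pole. In amygdala-projecting cells none was lower than in ventral CA1, where 2.38% of all genes were called and 1.59% were higher. The median log2 difference of the 15 members was 1.29, against 0.07 over all genes tested. mt-Nd5, the largest complex I subunit of the mitochondrial genome, had 4398, 3528 and 3152 CPM against 1060.5, 1086 and 1360.1 in ventral CA1, with no overlap (log2 1.84, SE 0.16, edgeR adjusted p = 2.31e-05). mt-Nd2 had 1323, 1187 and 1028 CPM against 241, 243 and 363, also without overlap (log2 2.24, SE 0.20, edgeR adjusted p = 2.31e-05). mt-Nd4 (log2 1.64, SE 0.15) and mt-Co2 (2.01, SE 0.18) had the same adjusted p of 2.31e-05 by edgeR. The rRNAs rose least, by log2 0.72 for mt-Rnr1 and 0.70 for mt-Rnr2, and mt-Atp8 (log2 2.58, edgeR adjusted p = 0.0626) and mt-Tp were not called.

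Accumbens-projecting cells were compared with the same ventral CA1 libraries, so the 2 comparisons are not independent. Again 13 of 15 members were higher and none lower, where 2.04% of all genes were called and 1.49% were higher, with a median log2 difference of 1.29 against 0.11 over all genes. mt-Nd2 had 939, 1327 and 1094 CPM (log2 2.11, SE 0.20, edgeR adjusted p = 7.77e-05) and mt-Nd5 2873, 3902 and 3489 (1.67, SE 0.16, adjusted p = 7.77e-05), all above the ventral libraries. mt-Nd4 (1.51, SE 0.15) and mt-Co2 (1.78, SE 0.18) followed, and the smallest called difference was that of mt-Rnr2 at 0.39. Between the 2 projection groups 0 of 15 members were called by edgeR, with 2 at an unadjusted p under 0.05 and 0 by DESeq2, where 0.0231% of all genes were called. The member differences between them lay between log2 -0.35 and 0.31. Leaving out single libraries kept 11 to 13 calls for amygdala-projecting and 9 to 13 for accumbens-projecting cells. Endothelial markers summed to 36.6 to 95.3 CPM in amygdala-projecting and 11.9 to 51.7 in accumbens-projecting libraries against 0 to 4.07 in ventral CA1, with Cldn5 and Ly6c1 at 0 in all 3 groups. In amygdala-projecting against ventral CA1 libraries, GABAergic markers stood at 0.197 to 0.424 against 15.05 to 19.4 CPM, astrocyte markers at 570 to 705 against 398 to 513 CPM and oligodendrocyte markers at 28.5 to 48.6 against 52.4 to 71.3 CPM. Reads outside genes made up 30.5% to 39.0% in accumbens-projecting and 20.8% to 30.4% in ventral CA1 libraries. The part of these was not tested. How the projection-defined cells were labelled is not given, so labelling cannot be told apart from target in any comparison with cells taken by position.

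Postsubiculum-projecting cells had 10 of 15 members higher than dorsal CA1 and none lower, where 10.8% of all genes were called and 5.24% were higher. mt-Co1 had 10908 ± 1136 against 4581 ± 101 CPM (log2 1.32, SE 0.08, edgeR adjusted p = 1.22e-05). mt-Co2 had 959 ± 131 against 390 ± 14.9 CPM (1.37, SE 0.12, edgeR adjusted p = 8.47e-05), mt-Nd1 2728 ± 477 against 1100 ± 51.8 (1.38, SE 0.13, adjusted p = 0.000113) and mt-Cytb 2869 ± 428 against 1277 ± 47.8 (1.24, SE 0.11, adjusted p = 0.000118). The 10 called members ranged from log2 0.46 (mt-Rnr1) to 1.54 (mt-Nd5), without overlap of the ranges. mt-Rnr2 (0.23, edgeR adjusted p = 0.0542), mt-Nd3 (0.79, adjusted p = 0.0648) and mt-Atp6 (-0.19, adjusted p = 0.534) were not called. As a share of mRNA reads, mt-Atp6 was 0.363%, 0.311% and 0.347% in postsubiculum-projecting against 0.977%, 0.958% and 0.992% in dorsal cells. In the same comparison all 3 nuclear-retained RNAs tested were higher, and this list summed to 11624 to 13552 CPM against 5311 to 8091. Reads outside genes made up 42.7% to 43.6% against 26.8% to 32.7%, and astrocyte markers summed to 187 to 229 against 280 to 370 CPM. The part of these was not tested.

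**Figure D5:**
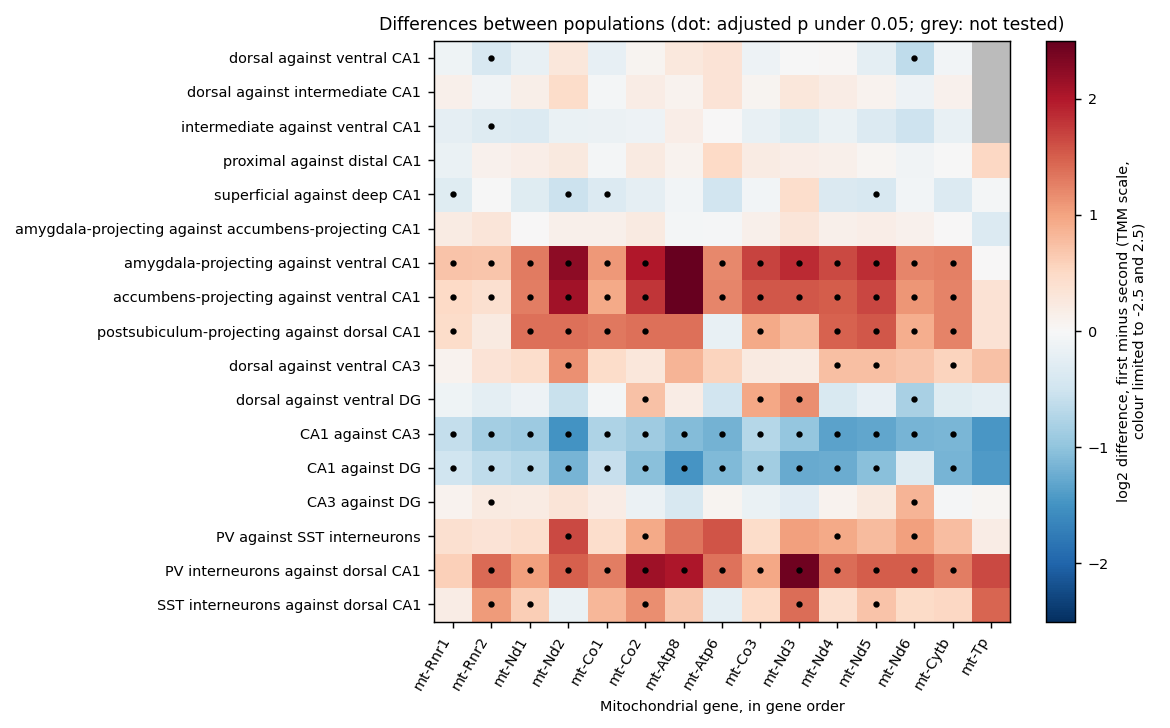
Log2 difference in level between the 2 populations of each comparison (first minus second, from the edgeR fits; red higher and blue lower in the first, colour limited to 2.5 in either direction) for the 15 members tested. Dots mark an adjusted p under 0.05 and grey cells were not tested. Amygdala- and accumbens-projecting cells against ventral CA1 have 13 dots each, all higher, and CA1 against CA3 has 14, all lower.

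Most members were lower in dorsal and ventral CA1 cells taken by position than in CA3 or DG. The amygdala- and accumbens-projecting CA1 cells are not in this comparison, and their mitochondrial shares of 18.3% and 15.96% lay among those of CA3 and DG (15.7% to 18.7%). Averaged over dorsal and ventral cells, 14 of 15 members were lower in CA1 than in CA3, where 13.5% of all genes were called and 8.15% were lower, and the median log2 difference was -1.09 against -0.0022 over all genes. mt-Rnr2 had 61564 ± 10996 against 96992 ± 7790 CPM (n = 6 each, log2 -0.86, SE 0.08, edgeR adjusted p = 6.25e-08). mt-Cytb had 1324 ± 103 against 2578 ± 423 CPM (-1.14, SE 0.11, edgeR adjusted p = 2.00e-07), and mt-Nd5 and mt-Nd4 differed by -1.29 (SE 0.13) and -1.35 (SE 0.14). The count was 13 without any one of the 12 libraries compared. Against DG, 13 of 15 members were lower in CA1, where 33.1% of all genes were called and 15.7% were lower, with a median of -1.05 against -0.02. mt-Cytb (-1.16, SE 0.11, edgeR adjusted p = 6.23e-08), mt-Nd4 (-1.25, SE 0.14), mt-Co2 (-1.04, SE 0.12) and mt-Nd5 (-1.05, SE 0.13) had the smallest p. mt-Nd6, at log2 -0.32, was not called there (edgeR adjusted p = 0.185). Both comparisons share the CA1 libraries. Reads outside genes made up 38.2% to 46.7% in DG against 20.8% to 32.7% in CA1. With these and spike-ins in the denominator, the mitochondrial share was 8.85% in dorsal DG, next to 8.40% in ventral CA1. GABAergic markers summed to 47.8 to 114 CPM in DG against 0 to 19.4 in CA1. Astrocyte markers summed to 775 to 3991 CPM in CA3 against 280 to 513 in CA1, with Aldh1l1 and Gjb6 at 0 in the dorsal cells of both. The part of these in the differences was not tested.

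Averaged over dorsal and ventral cells, 2 of 15 members were called between CA3 and DG, where 36.5% of all genes were. This average can hide differences that have opposite orders at the poles. In dorsal cells mt-Nd2 had 821, 991 and 1323 CPM in CA3 against 715, 485 and 551 in DG. In ventral cells it had 572, 468 and 617 CPM in CA3 against 628, 1237 and 807 in DG. The dorsal minus ventral difference itself differed between CA3 and DG in 7 of 15 members, as given below. mt-Nd6 was higher in CA3, with 218 ± 60.6 against 148 ± 58.8 CPM (log2 0.85, SE 0.18, edgeR adjusted p = 0.000844). mt-Rnr2 was called as higher in CA3 (log2 0.22, SE 0.08, edgeR adjusted p = 0.0305), but its plain CPM means of 96992 ± 7790 and 99314 ± 15248 have the opposite order, so this direction depends on the scaling. Without single libraries the count was 1 to 4. It was 1 without dorsal CA3 replicate 3, ventral CA3 replicate 3, dorsal DG replicate 2, dorsal DG replicate 3 or ventral DG replicate 1, and 4 without ventral DG replicate 2. Reads outside genes made up 21.1% to 24.02% in CA3 against 38.2% to 46.7% in DG, nuclear-retained RNAs summed to 3369 to 5012 against 5861 to 9787 CPM and GABAergic markers to 0 to 0.436 against 47.8 to 114 CPM, and their part was not tested.

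Relative to mitochondrial reads, nuclear genes shift as a body, by a median log2 of 0.78 for CA1 against CA3 and 0.57 against DG. The shares of all genes called are therefore no yardstick here. Whether the counts of called members are particular to the members cannot be told from them. Between CA1 and CA3, 7 members were called, where 45.7% of all genes were: mt-Nd2 (log2 -0.70, SE 0.13), mt-Nd4 (-0.55, SE 0.10), mt-Nd5 (-0.50, SE 0.09), mt-Atp6 (-0.40, SE 0.15), mt-Nd6 (-0.37, SE 0.14) and mt-Cytb (-0.35, SE 0.08) were lower in CA1 and mt-Rnr1 higher (0.20, SE 0.05). Between CA1 and DG, 7 were called, all lower in CA1, where 42.9% of all genes were called, led by mt-Cytb (-0.53, SE 0.08), mt-Nd4 (-0.62, SE 0.10), mt-Nd5 (-0.42, SE 0.09) and mt-Co2 (-0.43, SE 0.10). CA3 and DG differed in 4, where 34.3% of all genes were called, with mt-Nd6 higher in CA3 (0.68, SE 0.14) and mt-Co2 (-0.32), mt-Co3 (-0.33) and mt-Nd3 (-0.45) lower. Dropping replicate number 2 from all groups left 4, 3 and 1 calls in these 3 comparisons, and dropping number 3 left 1 in the last. Scaled to mitochondrial mRNA reads alone, the counts were 5, 6 and 1.

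Within CA3, 4 of 15 members were higher in dorsal than in ventral cells, where 4.97% of all genes were called. mt-Nd2 had 821, 991 and 1323 CPM against 572, 468 and 617, without overlap (log2 1.14, SE 0.25, edgeR adjusted p = 0.00737). mt-Nd5 (0.75, SE 0.18, edgeR adjusted p = 0.0141), mt-Nd4 (0.76, SE 0.19, adjusted p = 0.0233) and mt-Cytb (0.56, SE 0.16, adjusted p = 0.0408) had separate ranges too. The count fell to 0 without dorsal CA3 replicate 3 or ventral CA3 replicate 2, to 1 without ventral CA3 replicate 1 and to 2 without dorsal CA3 replicate 2. Relative to mitochondrial reads 2 were called, where 4.24% of all genes were, mt-Nd2 (0.83, SE 0.18) and mt-Nd5 (0.45, SE 0.12). That count was 1 without replicate number 1 and 0 without number 2 or 3. Astrocyte markers summed to 3355 to 3991 CPM in dorsal against 775 to 1092 in ventral CA3, and nuclear-retained RNAs to 4783 to 5012 against 3369 to 3614 CPM, and their part was not tested.

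The long axis of DG gave another set of members. mt-Nd3 had 114, 137 and 148 CPM in dorsal against 46.9, 78.9 and 59.3 in ventral granule cells (log2 1.15, SE 0.23, edgeR adjusted p = 0.00147). mt-Co3, the third subunit of complex IV from this genome, had 1470.5 ± 141 against 779 ± 206 CPM (0.96, SE 0.21, edgeR adjusted p = 0.00246), and mt-Co2 1040.5 ± 88.2 against 658 ± 117 (0.72, SE 0.16, adjusted p = 0.00363). mt-Nd6 was lower in dorsal cells, with 105 ± 26.05 against 192 ± 47.3 CPM (-0.81, SE 0.25, edgeR adjusted p = 0.0295). These were 4 of 15 members, where 19.4% of all genes were called, and without ventral DG replicate 1 the count was 8. Astrocyte markers summed to 407 to 482 CPM in dorsal against 716 to 788 in ventral DG, and GABAergic markers to 89.7 to 114 against 47.8 to 65.0 CPM, and their part was not tested. Relative to mitochondrial reads the same 4 symbols were called, where 17.3% of all genes were: mt-Co3 (1.19, SE 0.16), mt-Co2 (0.90, SE 0.14), mt-Nd3 (1.38, SE 0.23) and mt-Nd6 (-0.64, SE 0.20). Each of the 3 that were higher has a nuclear copy described above, and whether read placement moved with the axis was not tested.

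Direct tests of the difference between long-axis contrasts, dorsal minus ventral in one region less the same in the other, called 3 of 15 members for CA1 against CA3, where 3.52% of all genes were called. They were mt-Rnr2 (log2 -0.72, SE 0.15), mt-Nd5 (-0.98, SE 0.25) and mt-Nd6 (-1.32, SE 0.36). For CA1 against DG 2 were called, mt-Co3 (-1.07, SE 0.29) and mt-Nd3 (-1.15, SE 0.33), where 9.71% of all genes were. For CA3 against DG 7 were called, where 9.48% of all genes were, led by mt-Nd2 (1.69, SE 0.35, edgeR adjusted p = 0.00380) and mt-Nd6 (1.51, SE 0.36, adjusted p = 0.0100). The 3 tests share libraries pairwise. The first count was 1 without dorsal CA1 replicate 1, 2 or 3, ventral CA1 replicate 3, dorsal CA3 replicate 2 or 3, or ventral CA3 replicate 1 or 2. The second was 0 without dorsal CA1 replicate 2 and 1 without dorsal CA1 replicate 1, ventral CA1 replicate 3, or ventral DG replicate 1 or 3. The last was 3 without ventral CA3 replicate 2 and 4 without ventral DG replicate 2.

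PV interneurons, fast-spiking cells with a high demand for ATP, had 13 of 15 members higher than dorsal CA1 and none lower, where 29.7% of all genes were called and 16.3% were higher. The median log2 difference was 1.42 against 0.13 over all genes. mt-Co2 had 1690.04 ± 274 against 390 ± 14.9 CPM (log2 2.11, SE 0.17, edgeR adjusted p = 1.96e-06), and mt-Rnr2 139960.0 ± 15937 against 52198 ± 1305 (1.42, SE 0.16, adjusted p = 3.17e-05). mt-Nd3 (2.43, SE 0.29, edgeR adjusted p = 4.46e-05) and mt-Nd4 (1.39, SE 0.17, adjusted p = 6.31e-05) came next, and mt-Rnr1 was not called (0.59, adjusted p = 0.134). SST interneurons, set against the same dorsal CA1 libraries, had 5 members higher and none lower, where 27.4% of all genes were called and 15.6% were higher. These were mt-Co2 (log2 1.16, SE 0.17, edgeR adjusted p = 0.000256), mt-Rnr2 (1.06, SE 0.16, adjusted p = 0.000353), mt-Nd3 (1.39, SE 0.28, adjusted p = 0.00270), mt-Nd5 (0.72, SE 0.19, adjusted p = 0.0130) and mt-Nd1 (0.61, SE 0.20, adjusted p = 0.0400). Without SST replicate 3 there were 6 of 16 tested, and without dorsal replicate 1 or dorsal replicate 3 there were 3. Astrocyte markers summed to 17.99 to 57.7 CPM in PV and 86.4 to 137 in SST libraries against 280 to 370 in dorsal CA1. Against dorsal CA1, SST libraries also had 2127 to 4226 against 5311 to 8091 CPM of nuclear-retained RNAs, 53.3 to 934 against 14.7 to 35.1 of oligodendrocyte markers, 32.6 to 64.8 against 0.0781 to 1.22 of microglia markers, and 22.4% to 26.7% against 26.8% to 32.7% of reads outside genes. The part of these was not tested.

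Tested against each other, PV cells had 4 of 15 members higher than SST cells, where 3.51% of all genes were called. mt-Nd2 had 1061, 969.7 and 803 CPM against 320.0, 299 and 331 (log2 1.64, SE 0.21, edgeR adjusted p = 0.00199). mt-Nd4 (0.96, SE 0.19, edgeR adjusted p = 0.0232), mt-Co2 (0.94, SE 0.19, adjusted p = 0.0248) and mt-Nd6 (1.03, SE 0.24, adjusted p = 0.0436) were called too, all without overlap. Without SST replicate 3, the library that stands apart in its makeup, the count was 10, and without any other of the 6 libraries it was 1. Relative to mitochondrial reads only mt-Nd2 was called (1.24, SE 0.24, edgeR adjusted p = 0.0141), where 3.82% of all genes were, and it was lost without SST replicate 1, PV replicate 2 or PV replicate 3. SST libraries held 32.6 to 64.8 CPM of microglia markers against 0.315 to 7.44 in PV cells, and 53.3 to 934 CPM of oligodendrocyte markers against 15.9 to 49.1. Nuclear-retained RNAs summed to 2127 to 4226 CPM in SST against 6288 to 11619 in PV cells, astrocyte markers to 86.4 to 137 against 17.99 to 57.7 CPM, and reads outside genes made up 22.4% to 26.7% against 28.6% to 30.03%. The part of these in the comparison was not tested.

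The nuclear partners of these transcripts, from fixed lists, moved with them in some comparisons and not in others. In PV cells against dorsal CA1, 30 of 36 nuclear complex I genes tested were higher, 3 of 4 of complex II, 8 of 9 of complex III, 11 of 11 of complex IV and 15 of 16 of complex V, and none was lower. Of all genes tested in this comparison, 16.3% were higher. Cox6b1, a subunit of complex IV, had 274 ± 71.9 against 52.8 ± 6.28 CPM (log2 2.38, edgeR adjusted p = 9.25e-06), and Ppargc1a, a coactivator of mitochondrial biogenesis, 428 ± 17.7 against 94.98 ± 9.50 (2.16, adjusted p = 4.42e-06). In SST cells against dorsal CA1 the higher counts were 22, 1, 4, 10 and 11 for complexes I to V, where 15.6% of all genes were higher. Without SST replicate 3 they were 27, 1, 6, 11 and 16, where 15.9% of all genes were. The SST libraries spread widely on these lists, from 559 to 1379 CPM for complex III and from 1409 to 3099 CPM for complex IV. Of the 18 genes for transcription and maintenance of the mitochondrial genome, 3 were higher in PV cells and 1 higher and 1 lower in SST cells, with the same counts without SST replicate 3.

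Between CA1 and CA3, where 14 members were lower in CA1, 0 of 36 nuclear complex I genes were called by edgeR, against 13.5% of all genes. Among the other respiratory lists only Cox5b was higher, and Cox7b and Atp5g1 were lower. Against DG, 2713 of 15549 genes tested were higher and 2439 lower in CA1, and 13 members were lower. Of 36 complex I genes, 15 were higher and 3 lower in CA1. Complex II had 3 higher and 0 lower, and complex III 0 and 0. Complex IV had 2 and 2, and complex V 5 and 3. These counts average over poles that had opposite orders. At the dorsal pole, complex I genes summed to 1583 ± 103 CPM in CA1 and 1770 ± 123 in DG, with overlapping ranges, complex III genes to 524 ± 29.9 and 642 ± 9.20, and complex IV genes to 999.8 ± 72.2 and 1584 ± 58.6. At the ventral pole the same lists summed to 1686 ± 77.8 in CA1 and 1003 ± 62.8 CPM in DG, 612 ± 12.1 and 421 ± 29.4, and 1130.0 ± 57.4 and 794 ± 50.5. Atp5a1, the alpha subunit of ATP synthase, had 685 ± 66.8 against 388 ± 34.1 CPM (log2 0.89, edgeR adjusted p = 9.87e-09). In postsubiculum-projecting cells, where 10 members were higher, 9 complex I genes, 3 of complex II, 3 of complex IV and 4 of complex V were lower than in dorsal CA1 and 1 complex I gene, Ndufc1, was higher. Of all 12663 genes tested in this comparison, 708 were lower and 663 higher. Atp5a1 had 192 ± 56.1 against 639 ± 44.6 CPM there (log2 -1.67, edgeR adjusted p = 0.000166). In dorsal against ventral DG, 20 of 36 complex I, 4 of 9 complex III, 10 of 11 complex IV and 11 of 16 complex V genes were higher, beside the 3 members that were. Of all 15549 genes tested there, 1355 were higher. The lists hold 36 genes of complex I, 9 of complex III and 11 of complex IV. In amygdala-projecting against ventral CA1 cells, 2, 1 and 4 of these were higher, where 1.59% of all genes were. In accumbens-projecting cells 1, 1 and 3 were higher, where 1.49% of all genes were. Differences between nuclear and mitochondrial lists were not themselves tested.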

How the data were processed

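The deposited raw counts of reads per gene in 48 libraries were made with TopHat2 2.0.6 and HTSeq on NCBIM37 (mm9), per the submitters' processing notes, and the strand used is not given in the sources used here. The authors' FPKM values (Cuffdiff 2.1.1, per the same notes) list every member at 0 and were used only for that check. Identifiers were joined to GENCODE M21 (GRCm38), whose coordinates are not those of the files' build. CPM is reads per 1000000 reads in genes, without spike-ins and the 5 summary lines. Groups came from the sample labels; count columns name the group but not the matching sample. Comparisons used edgeR 4.0.16 (R 4.3.3): TMM, filterByExpr, robust quasi-likelihood F tests, and Benjamini-Hochberg adjustment over all genes at 0.05, with all populations of an axis or group in 1 fit. A second scale set library size to the mitochondrial reads. The script was tested on simulated data. Members and lists were chosen with earlier results of these data known, and 1 further gene of the GABAergic list is not reported here. The text gives values of 6 members per library, all called members where at most 6 were called in a direction and otherwise the 4 with the smallest p, and up to 2 genes per nuclear list and direction. Alternatives were DESeq2 1.42.0 and its size factors, no filter, nuclear genes for scaling, mitochondrial mRNA for scaling, 1 fit of all 48 libraries, a replicate block and leaving out libraries. Replicate numbers did not pair libraries.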

Additional observations from a re-analysis of the deposited data

Results flagged for a closer look

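The dorsal minus ventral difference of 12 member and region pairs differed between regions by the edgeR test of the difference itself (adjusted p under 0.05 over all genes). Between CA1 and CA3, mt-Rnr2 differed by log2 -0.72, mt-Nd5 by -0.98 and mt-Nd6 by -1.32. For CA1 against DG, the difference was -1.07 for mt-Co3 and -1.15 for mt-Nd3. For CA3 against DG, it was 1.69 for mt-Nd2, 1.51 for mt-Nd6, 1.13 for mt-Nd4, 1.03 for mt-Atp6, 0.96 for mt-Nd5, 0.86 for mt-Cytb and 0.58 for mt-Rnr2. The 3 tests share libraries, and with 1 dorsal and 1 ventral population per region, the causes were not tested.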

How the results depend on the processing

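Counts of called members moved by over 1.5 times in 84 of 356 alternative values, and 168 of 1038 single-gene values lost a call, with 0 reversed. The cause of each change was not tested. With 1 fit of all 48 libraries, dorsal against ventral CA1 had 0 called members, intermediate against ventral CA1 0, superficial against deep CA1 0, SST cells against dorsal CA1 8 and PV against SST cells 9. With no filter, dorsal against intermediate CA1 had 1, intermediate against ventral CA1 4, PV against SST cells 8 (2 within mitochondrial reads), amygdala- against accumbens-projecting cells 1, dorsal against ventral CA3 2 (1 within mitochondrial reads), CA3 against DG 1 (2 within mitochondrial reads) and the long-axis difference of CA1 against CA3 1. DESeq2 gave 2 for intermediate against ventral CA1, 7 for PV against SST cells and 1 for CA3 against DG, and its size factors in edgeR gave 2 and 1 for the first and last. Scaling by nuclear genes gave 1 for CA3 against DG. Scaled to mitochondrial mRNA, PV against SST cells had 0, dorsal against ventral CA3 1 and CA3 against DG 1. The counts of 2 for dorsal against ventral CA1, 5 for CA1 against CA3 and 6 for CA1 against DG were also lower. Of 25 single calls made relative to mitochondrial reads, 13 were lost on this scale.

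Leaving out 1 library gave 1 to 3 called members for dorsal against ventral CA1 (1 to 4 within mitochondrial reads), 0 to 1 for dorsal against intermediate, 1 to 4 for intermediate against ventral and 0 to 7 for superficial against deep CA1. It gave 3 to 6 for SST cells against dorsal CA1, 1 to 10 for PV against SST cells (0 to 1 within mitochondrial reads), 0 to 6 for dorsal against ventral CA3, 3 to 8 for dorsal against ventral DG and 1 to 4 for CA3 against DG. The long-axis differences had 1 to 3 (CA1 against CA3), 0 to 3 (CA1 against DG) and 3 to 8 (CA3 against DG). Within mitochondrial reads, leaving out a replicate number gave 0 to 1 for dorsal against ventral CA3, 4 to 6 for CA1 against CA3, 3 to 7 for CA1 against DG and 1 to 3 for CA3 against DG. With a replicate block, no count moved by over 1.5 times (2 for dorsal against ventral CA1) and 3 of 84 single calls were lost; correlations of same-numbered libraries ran from -0.0601 to 0.0683.

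With reads outside genes and spike-ins in the denominator, the mitochondrial share was 6.66% in dorsal, 7.38% in intermediate, 8.40% in ventral, 6.13% in proximal, 5.83% in distal, 6.39% in superficial and 6.49% in deep CA1. It was 12.9% in dorsal and 12.04% in ventral CA3, 12.8% in SST and 15.2% in PV cells, 12.8% in amygdala-, 10.02% in accumbens- and 7.10% in postsubiculum-projecting cells, 8.85% in dorsal and 10.1% in ventral DG. No alternative was run on the FPKM values, which are 0 for all members. Counting error is largest for mt-Tp, mt-Nd4l and the other transfer RNAs, which had the fewest reads, and why they had few was not tested. The nuclear counts for SST cells without SST replicate 3 were added after seeing the data.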
